A study of Mus musculus with 12 samples.

Results

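The peaks described here are the RbFox1 eCLIP peaks on ATP2A2, a gene on the + strand of human chromosome 12. They are the + strand peaks of the human list that overlap chr12:110280756-110351093 (hg38), and there were 39 of them among 24831 peaks. The gene was picked with its peaks already known, so its peak number, its enrichments and its dense run of peaks at 110346320 to 110347843 are given as a description and not as tests. The gene borders were given with the gene's name and could not be set against a human annotation.

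In eCLIP, RNA is crosslinked to its bound proteins by ultraviolet light, the protein of interest is immunoprecipitated, and the RNA pieces that come with it are sequenced. The cells were clone 77-5 of T-REx-293, human embryonic kidney cells with a mouse TrkB-BAC minigene that keeps both of its RbFox motif clusters (WT minigene), in which RbFox1 is made only under doxycycline. The human list compares 2 immunoprecipitated libraries made after 48 h of doxycycline (+Dox) with 2 made without it (No Dox). The dose was 0.5 mg/ml in the sample labels, while the figure legends of the study give the same figure in μg/ml. The libraries of both compared conditions came from 1 clone, and RbFox1 came from the inducible transgene. Of the 12 libraries of the series, 2 were from a line with a minigene that lacks the clusters and 6 were inputs whose condition the labels leave unclear. The fold enrichments and p-values below compare +Dox with No Dox, and whether the inputs were also used to select the listed peaks is not given in the sources used here.

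ATP2A2 encodes SERCA2, the pump that moves calcium from the cytosol into the endoplasmic reticulum and, in muscle, into the sarcoplasmic reticulum. Its transcripts differ at their 3′ end through alternative splicing and polyadenylation. One product, SERCA2a, is the form of heart and slow skeletal muscle, and another, SERCA2b, is made in most cell types. RbFox proteins bind RNA through a single RNA recognition motif that favours GCAUG, and they act on splicing from introns and on transcripts from their 3′ ends. No human genome sequence or exon map was used, so the motifs under the ATP2A2 peaks and the exon, intron or UTR in which each peak lies were not analysed here.

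Each peak has 1 log2 fold enrichment, which is the ratio of its reads in +Dox to its reads in No Dox after division by the total reads of the library. It therefore compares immunoprecipitated RNA and is not divided by the level of the ATP2A2 transcript in either condition. Each peak also has 1 −log10 p, from the chi-square or Fisher's exact test of the authors. Both values are the authors', merged over the replicates. The list gives neither reads nor values of single libraries. The depth is therefore unknown, the replicate error of a peak cannot be given, and a difference between peaks cannot be set against it. No listed peak had a log2 fold enrichment under 3 or a p above 0.001, so weaker peaks are not part of the list.

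RbFox1 peaks on ATP2A2 were found only at the 3′ end of the gene interval. The first peak began at 110344099, after 63343 nt of the 70338 nt interval, so the leading 90.1% held no listed peak. The last peak ended at 110351043, which is 50 nt before the end of the interval. All 39 peaks thus fell in 6945 nt, 9.87% of the interval. A stretch with no listed peak may hold too few reads, or peaks under the threshold of the list. It may also hold peaks that were not kept when the authors merged the replicates, and these cannot be told apart here. The − strand had 0 peaks over the same interval. The nearest + strand peaks outside the gene were 269 kb upstream, with a log2 fold enrichment of 3.90 at 110011696 to 110011781, and 796 kb downstream, with 3.28 at 111147140 to 111147198.

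**Figure D1:**
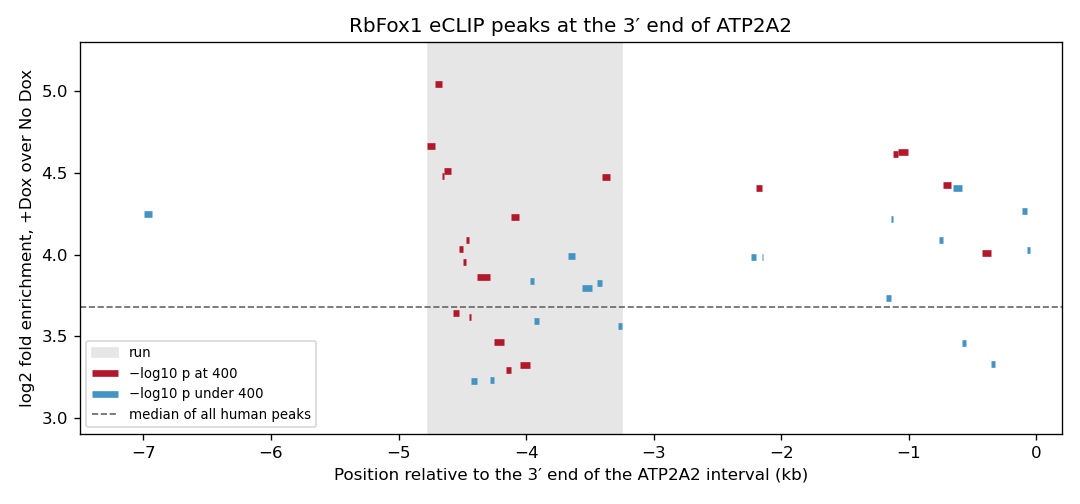
Each bar is 1 RbFox1 peak of ATP2A2, drawn over its width, with its position relative to the 3′ end of the gene interval in kb (x) and its log2 fold enrichment of +Dox over No Dox (y). Red bars have a −log10 p of 400, blue bars a lower one, grey marks the run of 23 peaks, and the dashed line is the median of all human peaks, 3.68; the most enriched peaks of the run sit at its upstream border and most of its other peaks lie lower.

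The log2 fold enrichment of the 39 peaks ran from 3.22 (9.34-fold) to 5.04 (33.0-fold), with a median of 3.99 (15.9-fold). Over all human peaks the median was 3.68, with quartiles of 3.33 and 4.14. Of the ATP2A2 peaks, 28 were above the median of the list and 14 above its upper quartile. The most enriched of them, at 110346377 to 110346434, ranked 972 of 24831, so the gene did not hold the strongest single peaks of the list. Its peaks were narrow, between 11 and 100 nt with a median of 42 nt, against a median of 82 nt over the list.

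Many of the ATP2A2 peaks stood at the upper end of the −log10 p scale. The highest −log10 p of the list is 400, and 20 of the 39 ATP2A2 peaks (51.3%) had this value, where 2.05% of all human peaks did. Below 400 the highest value of the whole list was 150, so no peak lies between both. The value 400 was therefore handled as a ceiling and not as an exact p. The peaks at 400 cannot be ranked by p. The other 19 ATP2A2 peaks had a −log10 p from 28.8 to 80.7, with a median of 58.1, against a median of 9.98 for all peaks under 400. The lowest −log10 p of the gene was thus above the median of the list. A stricter threshold, with a log2 fold enrichment of 4 or more and a p no higher than 1e-05, was passed by 19 ATP2A2 peaks (48.7%) and by 29% of all human peaks. Because the gene was chosen on this comparison, these shares describe it and were not tested.

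The run from 110346320 to 110347843 held 23 of the 39 peaks (59.0%) in 1524 nt, 2.17% of the gene interval. Its peaks covered 1089 nt, 71.5% of the run, at 15.1 peaks per 1000 nt. The 16 peaks of the rest of the gene covered 686 nt. Of these, 1 lay upstream of the run, 2158 nt before it, and 15 lay downstream, the nearest 1012 nt after it. The peaks just outside the run had log2 fold enrichments of 4.25 at 110344099 to 110344161 and 3.99 at 110348856 to 110348895. Those just inside it had 4.66 at 110346320 to 110346376 and 3.56 at 110347815 to 110347843.

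The dense run was not the more enriched portion of the gene. Its log2 fold enrichment had a median of 3.84 (14.3-fold) and ran from 3.22 to 5.04, while the rest had a median of 4.15 (17.8-fold) and ran from 3.33 to 4.63. The ranges overlapped for most of their length. Of the 16 peaks in the rest, 13 were above the median of the run, and 6 of the 23 peaks in the run were above the median of the rest. The run and the rest share the same RNA and libraries, so the difference of -0.31 between their medians has no replicate behind it. At the stricter threshold its sign turned, to 0.21, with 8 of 23 peaks left in the run and 11 of 16 in the rest. This threshold cuts on the log2 fold enrichment that is compared, and it dropped a larger share of the run. The turn is therefore no separate evidence on the order of run and rest.

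The share of peaks at the highest −log10 p was ordered the other way. The highest value of 400 was reached by 15 of the 23 peaks in the run (65.2%) and by 5 of the 16 in the rest (31.2%). In the run, peaks at 400 included some of low enrichment, down to 3.29 at 110346933 to 110346975. In the rest, the 5 peaks at 400 had log2 fold enrichments of 4.01 to 4.63. Among the peaks under 400, the run was not higher. Their median −log10 p was 57.1 in the run and 58.8 in the rest, and their highest 66.7 and 80.7. Median fold enrichment and the share of peaks at 400 thus rank the run and the rest differently. The reads behind each peak, on which p also depends, are not given in the list.

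**Figure D2:**
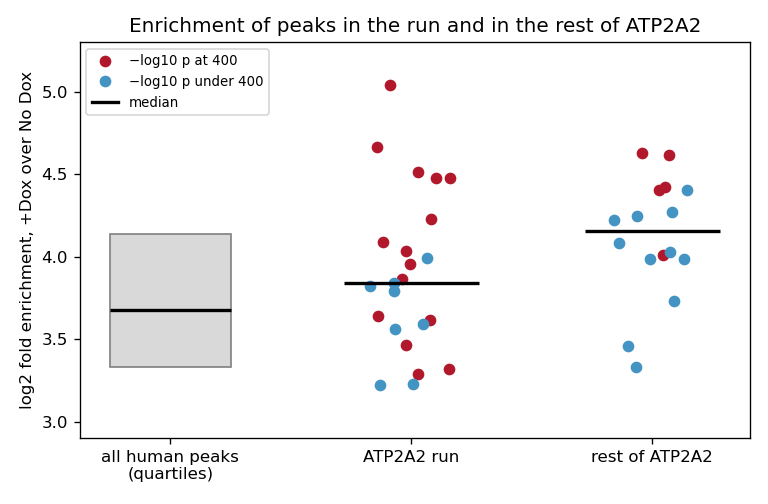
Each point is 1 peak of the ATP2A2 run (23 peaks) or of the rest of the gene (16 peaks), with its log2 fold enrichment of +Dox over No Dox on the y axis and its place within a column spread for legibility; the black lines are medians, and the grey box spans the quartiles of all human peaks. The median of the run, 3.84, lies under that of the rest, 4.15, while more of the points in the run are red, the colour of a −log10 p of 400.

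Within the run, enrichment was highest at the upstream border. The first 4 peaks, from 110346320 to 110346507, had log2 fold enrichments of 4.66, 5.04, 4.48 and 4.51, and all 4 had a −log10 p of 400. The other 19 peaks of the run had a median of 3.79, and 9 of them were below the median of the human list. Among these 19, the highest was 4.48 at 110347686 to 110347747, near the downstream border, and the next 4.23 at 110346976 to 110347034. The lowest values of the whole gene were 3.22 at 110346665 to 110346706 and 3.23 at 110346810 to 110346839, and both lay inside the run.

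The peaks of the run were not evenly spaced. The first 18 filled 822 of 873 nt, with gaps of at most 14 nt, and 14 of these 18 had a −log10 p of 400. A gap of 226 nt followed. The last 5 peaks covered 267 of 425 nt, with log2 fold enrichments of 3.56 to 4.48, and 1 of the 5 had a −log10 p of 400. The median log2 fold enrichment was nearly the same in both portions, 3.85 and 3.82.

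Downstream of the run, the 15 peaks formed 5 short stretches, separated from each other by 126 to 959 nt. The stretch at 110348856 to 110348952 had 3 peaks, with log2 fold enrichments of 3.99, 4.41 and 3.99, and the middle one had a −log10 p of 400. The stretch at 110349912 to 110350085 had 4 peaks with no base between them, and their log2 fold enrichments in the 3′ direction were 3.73, 4.22, 4.62 and 4.63. It had the highest median of the 5, at 4.42.

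The other 3 stretches lay within 761 nt of the end of the gene. At 110350333 to 110350538 there were 4 peaks with log2 fold enrichments of 4.09, 4.43, 4.40 and 3.46. The peak with 4.40, at 110350441 to 110350513, had the highest −log10 p of the gene under 400, at 80.7, and the one with 3.46 had the lowest, at 28.8. At 110350665 to 110350766 the 2 peaks had 4.01 and 3.33, and at 110350978 to 110351043 they had 4.27 and 4.03. Only the last stretch of the 5 had no peak with a −log10 p of 400. The single peak upstream of the run had a log2 fold enrichment of 4.25 and a −log10 p of 67.3.

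Neighbouring peaks differed in enrichment even where they touched. Of the 39 peaks, 19 directly followed another with no base between them, so that 20 separate regions were left, 12 in the run and 8 in the rest. The share of peaks that followed another in this way was 48.7% in ATP2A2 and 24.4% in the human list, which bears on any comparison of its peak number and peak widths with the list. Over these 19 pairs the absolute difference in log2 fold enrichment had a median of 0.40 and ran from 0.01 to 0.94. Over the 6068 such pairs of the human list the median was 0.35. The largest step in ATP2A2 was between the peak ending at 110350513, with 4.40, and the next, with 3.46. The second was between 3.29 and 4.23 at 110346975, inside the run. The borders between touching peaks come from the peak caller, so the number of peaks is not a number of binding sites.

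Set among the human list, the run was one of its largest series by number of peaks. That number counts touching peaks separately, and ranks with touching peaks joined were not computed. When peaks of 1 strand were grouped across gaps of up to 500 nt, the run was exactly 1 group and ranked 3 of 9787 by its number of peaks, a rank it shared with 3 other groups of 23. This rank depended on the gap. With gaps of up to 100 nt the run split into 2 groups, the larger of which had 18 peaks and ranked 9 of 12617, and with gaps of up to 1000 nt the run ranked 6 of 9020. By peaks with a −log10 p of 400, 2 groups had more than the 15 of the run, while 147 groups had any. The last 12 peaks of ATP2A2, from 110349912 to 110351043, formed another group of at least 10 peaks. There were 189 such dense groups in the list, and 2 of them were in ATP2A2.

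Among these 189 groups the run stood in the lower part by its median enrichment but not by its most enriched peak. Its median of 3.84 ranked 132 of 189, where the median over the groups was 4.07 with quartiles of 3.76 and 4.43. Its highest peak, with 5.04, ranked 81 among the highest peaks of the groups, whose median was 4.86. The last group of ATP2A2, with a median of 4.15, ranked 81. In the share of peaks with a −log10 p of 400 the run ranked 10 of 189, and 125 of the groups had no such peak. Its length of 1524 nt ranked 14, its 15.1 peaks per 1000 nt ranked 41, and its covered share of 71.5% ranked 117.

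The 3 other groups of 23 peaks had higher medians than the run. They were 4.71 at chr10:74112146-74113945, 5.38 at chr22:40966790-40967733 and 4.11 at chr20:25285247-25286907, all on the + strand. These groups had 5, 2 and 0 peaks with a −log10 p of 400, against the 15 of ATP2A2. Groups of equal peak number therefore differed in both measures, and with 1 value per peak these differences were not tested.

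**Figure D3:**
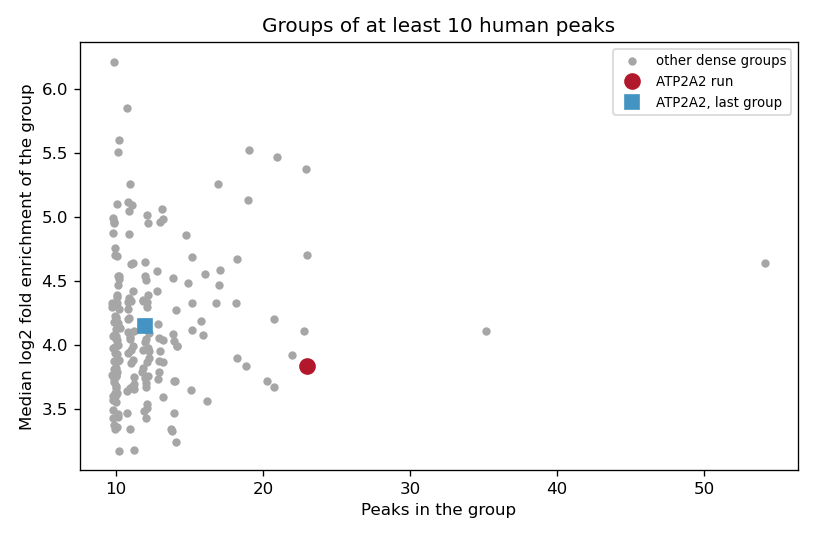
Each point is 1 of the 189 groups of at least 10 human peaks, with its number of peaks on the x axis (grey points are shifted sideways a little so that they can be seen) and the median log2 fold enrichment of +Dox over No Dox of its peaks on the y axis. The ATP2A2 run (red, 23 peaks, median 3.84) lies below the other groups of 23 peaks, and the last ATP2A2 group (blue square, 12 peaks, median 4.15) lies among groups of its size.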

How the data were processed

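Per the study's methods, the authors trimmed reads (umi_tools for molecular identifiers, cutadapt for adapters), set aside those of repeats and rRNA, and aligned what was left with STAR to a reference of hg38 plus the minigene. After duplicates were collapsed with umi_tools, CLIPper was used to call peaks. The deposited human list gives each peak a −log10 p-value and a log2 fold enrichment of +Dox over No Dox, merged over replicates by the authors. The list is labelled IDR (irreproducible discovery rate), but how this step and the merging were set is not given in the sources used here. The 2 minigene lists were not used.

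The list was read with Python 3.11.15, pandas 2.3.3 and numpy 2.4.6, and plotted with matplotlib 3.10.9. Positions count from 1. A peak belonged to ATP2A2 if it overlapped the interval on the + strand by at least 1 nt. Same-strand peaks at most 500 nt apart formed a group, and groups of at least 10 peaks were called dense. The grouping code was checked on simulated data, where 500 of 500 groups were recovered. All simulated gaps within groups were under the 500 nt limit and all gaps between groups over it. The check therefore bears on the code and not on the choice of 500 nt. No test was run, since there is 1 value per peak. Every peak of ATP2A2 entered the counts and medians, and only some peaks of the run are given with their own values. The gene, the run and the settings were chosen with earlier results of these data known. The planned counts of motifs and of other calcium handling genes need a human genome or annotation and were not run.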

Additional observations from a re-analysis of the deposited data

How the results depend on the processing

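No paired analysis was possible because the list holds 1 value per peak after the authors' merging. Leaving out single replicates was likewise not possible. There were 39 ATP2A2 peaks with the list as deposited and also with whole peaks required inside the gene. The stricter threshold left 19, and joining peaks that abut left 20 regions. The median log2 fold enrichment of the run minus that of the rest, -0.31, became 0.21 at the stricter threshold. By its construction this threshold drops the lower peaks of both, and it dropped a larger share of the run. The difference was -0.38 with abutting peaks joined and -0.28 as a mean over covered bases. With alternatives chosen after seeing the data it was -0.36 without the first 4 peaks of the run and -0.25 without the peak upstream of the run. Joining abutting peaks before the stricter threshold, also chosen after seeing the data, left 9 of 20 regions, beside 19 of 39 peaks without joining. The share of joined regions past this threshold was not computed for the whole list. The run held 42.1% of the peaks at the stricter threshold and 60% of the joined regions. The group holding the run had 23 peaks and rank 3 in the list with gaps of up to 500 nt, 18 peaks and rank 9 with 100 nt, where the run split into 2 groups, and 23 peaks and rank 6 with 1000 nt. The alternatives for motifs and calcium handling genes were not run. The unknown depth limits every value.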
